A study of Mus musculus with 6 samples.

Results

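Oligodendrocytes derived in culture from mouse epiblast stem cells were compared at passage 11 and at passage 3. The comparison takes in 2 of the 6 arrays of the series, 1 array at each passage. It covers 19938 genes, drawn from 35556 measured transcripts. A transcript entered it where the array annotation gives exactly 1 gene symbol. Where several transcripts measure a gene, the brightest of them, by its mean on the 6 arrays, stands for it. All cells were of mouse strain 129. Epiblast stem cells (EpiSCs), pluripotent cells of the epiblast after implantation, had been patterned into neural rosettes with SB431542, Dorsomorphin, Noggin, retinoic acid and sonic hedgehog (SHH). Dissociated rosettes gave cultures of oligodendrocyte progenitor cells (OPCs), kept in N2B27 medium with FGF2, PDGF-AA and SHH. Both oligodendrocyte groups came from such OPC cultures by adding thyroid hormone and taking FGF2 and PDGF-AA away, and they differ in the passage number on their labels. No transgene, mutation or sort is named for either group. The labels name neither the time spent in differentiation medium nor whether the cultures of the different passages came from the same EpiSC differentiation.

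Oligodendrocytes wrap axons in myelin, a compacted membrane rich in galactolipids and cholesterol and held together by proteins such as MBP. They arise from OPCs, dividing cells that carry the PDGF receptor alpha. When mitogens are withdrawn and thyroid hormone is added, OPCs leave the cell cycle, pass through a premyelinating stage marked by Enpp6 and Bcas1, and switch on myelin genes under the transcription factors Olig2, Sox10 and Myrf. As they do so their actin cytoskeleton is taken apart, with a known loss of SRF-driven actin genes and of contractility. Repeated passaging of progenitors can alter how many of them differentiate and which other cells a culture holds.

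With 1 array per passage there is no replicate check and no test. The difference given for each gene is its log2 RMA value at passage 11 minus that at passage 3, and a difference of 1 on this log2 scale is 2-fold. Over all 19938 genes the median difference was 0.06, and 57.1% of genes lay above 0. At least 2-fold higher at passage 11 were 154 genes (0.772%), and at least 2-fold lower were 631 (3.16%). At least 4-fold higher were 6 genes (0.0301%), and at least 4-fold lower were 117 (0.587%). These shares are the background for every list that follows. With 785 of 19938 genes at least 2-fold apart in either direction, a short list with 0 members apart lies near that background. The arrays ranged between 3.38 and 14.87 at passage 11 and between 3.40 and 14.71 at passage 3. Similar extremes do not show that the scales were alike. Quantile normalization of these 2 arrays gave 217 genes at least 2-fold higher and 532 lower. No detection call was used, and a low level can be background, which would shrink a difference that involves it. Of the 631 genes at least 2-fold lower, 308 had a passage 11 level below 9.005, the median of all gene values on the 6 arrays.

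**Figure D1:**
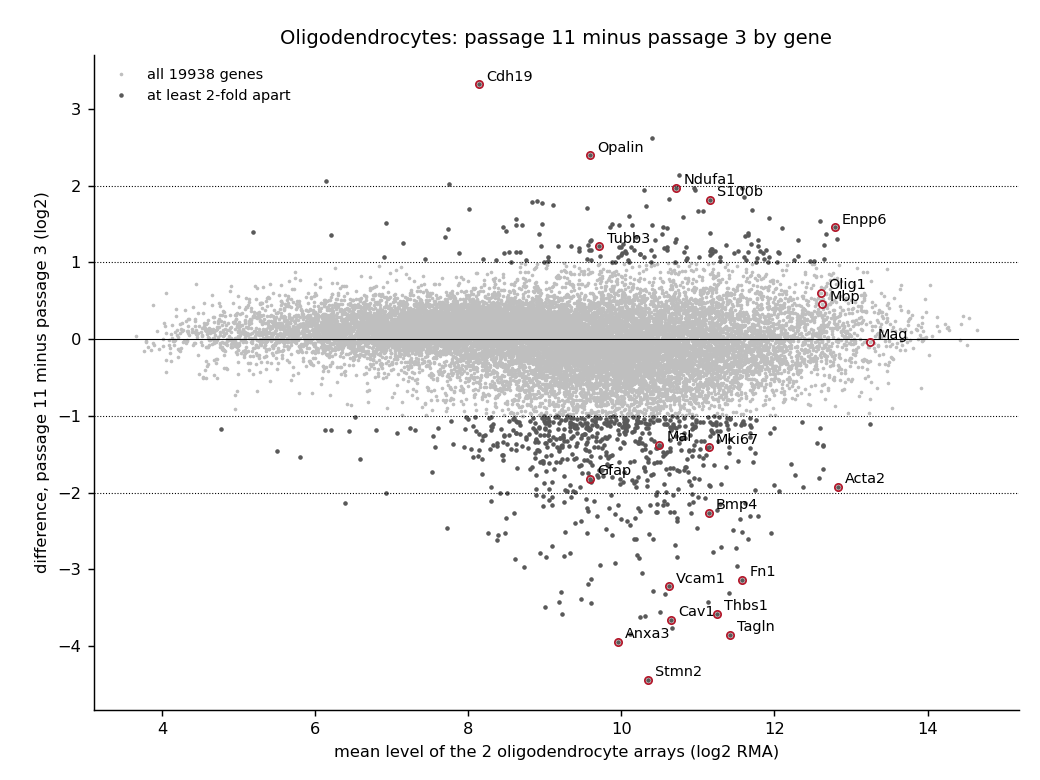
Difference between passages (log2, passage 11 minus passage 3, vertical axis) against the mean level of both oligodendrocyte arrays (log2 RMA, horizontal axis), 1 point per gene, with dotted lines at 2-fold and 4-fold. The lower side reaches -4.44 (Stmn2) and holds 117 genes past 4-fold, while the upper side reaches 3.32 (Cdh19) and holds 6.

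The labelled cell type was checked against its markers. Mbp, which encodes myelin basic protein, stood at 12.85 at passage 11 and 12.40 at passage 3, against 8.98 in EpiSCs and 8.87 in the rosette. Mag, a myelin glycoprotein gene, stood at 13.24 at passage 11 and 13.27 at passage 3, against 8.05 in EpiSCs and 7.97 in the rosette. Olig1, a transcription factor gene of the lineage, stood at 12.91 at passage 11 and 12.30 at passage 3, against 7.80 in EpiSCs and 7.77 in the rosette. Both oligodendrocyte arrays therefore carried these 3 markers at least 3 log2 units above the earlier stages. Of 30 myelin and mature oligodendrocyte genes, 26 were above 9.005 on at least 1 of these arrays, and Aspa, Gjb1, Hapln2 and Klk6 were not. The OPC gene Pdgfra stood at 11.99 at passage 11 and 12.62 at passage 3. OPC arrays were left out, so this check does not set the cultures apart from OPCs. Pou5f1, which marks pluripotent cells, stood at 7.50 at passage 11 and 7.48 at passage 3, near the rosette's 7.33 and far below the 13.02 of EpiSCs.

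Most myelin genes lay a little higher at passage 11. Of 30 myelin and mature oligodendrocyte genes, 22 were above 0, where 57.1% of all genes were. Their median difference was 0.27, against 0.06 over all genes, whose median absolute difference was 0.22. At least 2-fold higher was 1 of the 30, Opalin (3.33%, against 0.772% of all genes). At least 2-fold lower were 3 (10%, against 3.16%). Opalin, a sialylated membrane glycoprotein of oligodendrocytes, stood at 10.79 at passage 11 and 8.39 at passage 3, a 5.27-fold difference. Mog, on the outer face of myelin, was 12.62 at passage 11 and 11.91 at passage 3, and Cnp, an enzyme that keeps cytoplasmic channels in myelin open, was 13.97 at passage 11 and 13.31 at passage 3. The connexin gene Gjc3 was higher by 0.91, the tetraspanin gene Cd9 by 0.90 and the carbonic anhydrase gene Car2 by 0.98. Mobp (0.12), Mag (-0.04) and the tight junction gene Cldn11 (-0.14) differed by less. The 3 lower genes were Mal, Ermn and Anln. Mal, a raft protein of compact myelin, was 9.81 at passage 11 and 11.18 at passage 3. Ermn, which encodes the cytoskeletal protein ermin of mature oligodendrocytes, was 8.28 at passage 11 and 9.50 at passage 3. Anln encodes the actin and septin scaffold anillin, which acts in both myelin and cytokinesis, and was 9.67 at passage 11 and 11.27 at passage 3.

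Of 21 genes of newly formed oligodendrocytes, 2 were at least 2-fold higher and 1 was lower, and their median difference was 0.36. Enpp6, a choline phosphodiesterase gene that marks the premyelinating stage, was 13.52 at passage 11 and 12.06 at passage 3, a 2.74-fold difference. Bcas1, another marker of that stage, was 12.86 at passage 11 and 11.77 at passage 3. Tmem163, a zinc transporter gene, was higher by 0.76, and Myrf, the membrane-bound factor that turns on myelin genes, by 0.47. Gpr17, a receptor of committed precursors, differed by -0.04. Bmp4, a secreted ligand that turns OPCs towards astrocytes in rodents, went the other way, with 10.01 at passage 11 and 12.27 at passage 3, 4.80-fold lower. Among 21 lineage transcription factors the median was 0.02, 0 were at least 2-fold higher and 1 was lower. Olig1 was higher by 0.61, Olig2 by 0.39 and Sox10 by 0.15. The homeodomain gene Nkx2-2 was 10.01 at passage 11 and 10.92 at passage 3. Nfib, a nuclear factor I gene of glial development, was 11.06 at passage 11 and 12.16 at passage 3 on the transcript used and lower by 1.09 on its other transcript. Nfia was at -0.86 on the transcript used and at 0.01 on the other, so its value depends on the transcript.

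**Figure D2:**
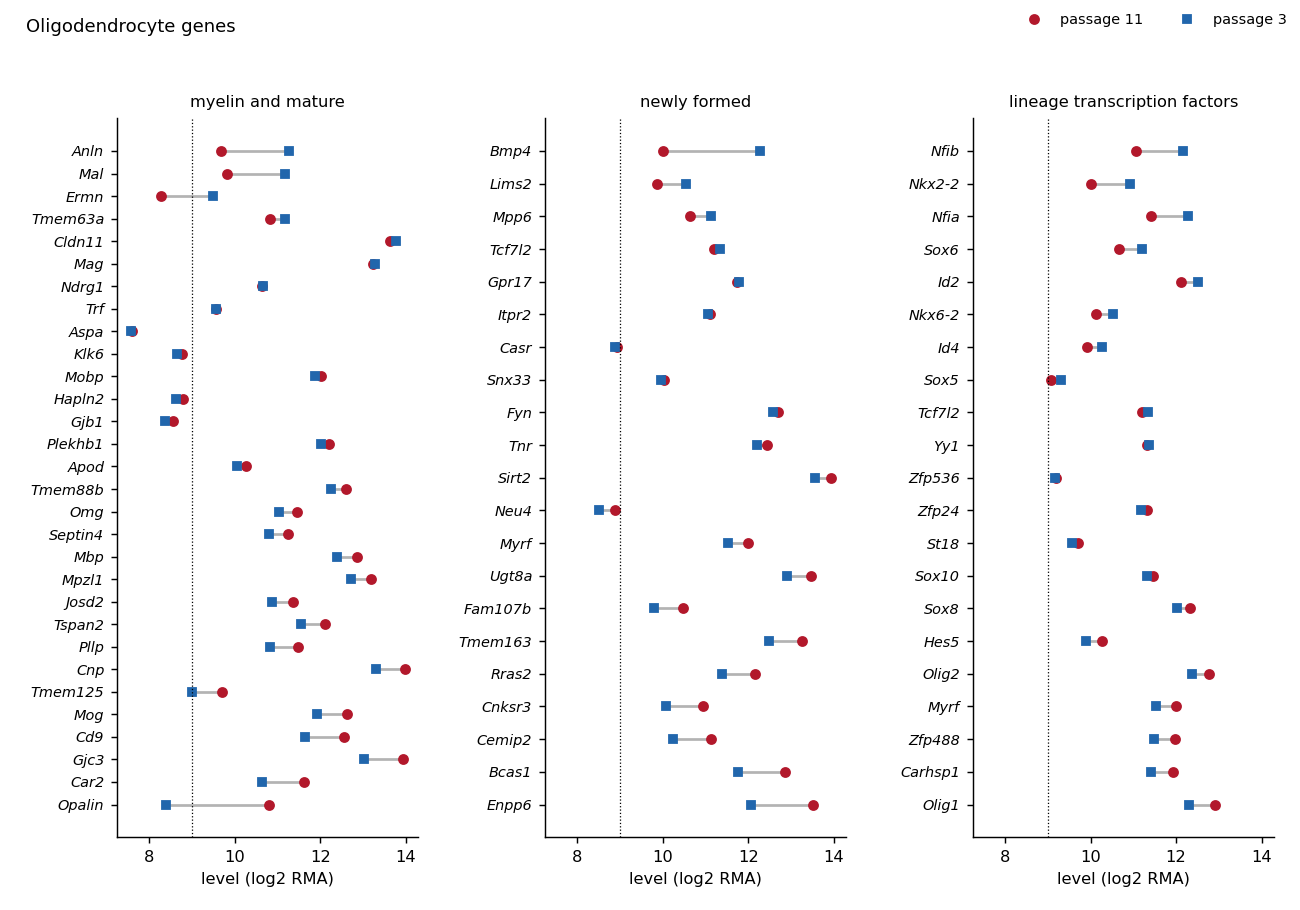
Level of each myelin, newly formed oligodendrocyte and lineage transcription factor gene (log2 RMA, horizontal axis), with passage 11 as red circles and passage 3 as blue squares, sorted by the difference; the dotted line is the median of all gene values, 9.005. Most pairs are close together, with Bmp4, Anln, Mal and Ermn farthest apart on the lower side and Opalin and Enpp6 on the higher side.

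OPC genes as a group had a median of -0.14. Of the 24 measured, 1 was at least 2-fold higher and 1 lower. Pdgfra, the receptor through which PDGF-AA keeps OPCs dividing, was 11.99 at passage 11 and 12.62 at passage 3, and Cspg4, the gene of the NG2 proteoglycan, was 10.02 at passage 11 and 9.82 at passage 3. Gpr37l1, a glial receptor gene, was higher by 1.13, and C1ql1, a secreted complement-related protein gene, was lower by 1.17. Cholesterol genes were nearly alike, with 0 of 20 at least 2-fold apart and a median of 0.12, and fatty acid synthesis genes likewise (0 of 14, median -0.04). In the galactolipid and sphingolipid list 2 of 18 were at least 2-fold lower (median 0.06), the sphingomyelin synthase gene Sgms1 at -1.31 and the ganglioside synthase gene St3gal5 at -1.01. Gal3st1, which makes sulfatide, was higher by 0.76 and Ugt8a, which makes galactosylceramide, by 0.57. The thyroid hormone list of 12 genes had a median of 0.03 and 1 member at least 2-fold lower. That was Crym, the gene of a cytosolic protein that binds thyroid hormone, at 8.73 at passage 11 and 12.28 at passage 3, 11.7-fold lower. The hormone's target genes Klf9 (-0.02) and Hr (0.64) and its receptor gene Thra (0.29) lay within 2-fold.

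MicroRNAs of the miR-219 and miR-338 families promote oligodendrocyte differentiation in rodents, so the rows of their genes were read too, after their values had been seen. A row for a microRNA gene reads RNA that holds the hairpin's sequence and says nothing of the mature microRNA. Mir219a-2 was 9.16 at passage 11 and 10.77 at passage 3, with 8.71 in EpiSCs and 11.59 in the rosette. It lies within the RefSeq span of Cercam on chromosome 2. Mir219a-1, on chromosome 17, encodes the same mature miR-219a-5p and was 9.43 at passage 11 and 9.12 at passage 3. Mir338 was 9.75 at passage 11 and 9.57 at passage 3, and Mir138-1, Mir138-2 and Mir23a differed by 0.14, 0.12 and 0.36. Thus 1 of these 6 genes was at least 2-fold apart. The others also lay near their levels in EpiSCs and the rosette. Mir219a-1 stood there at 9.48 and 9.32, Mir338 at 9.70 and 9.20, and Mir138-1 at 9.13 and 9.03. Mir138-2 stood at 8.68 and 8.54, and Mir23a at 9.13 and 8.87. Their small differences between passages therefore do not show steady expression in oligodendrocytes. The mature sequences that carry the seeds (bases 2 to 8, in capitals) are from RefSeq, build GRCm38.p6, and show that the 5p arm shared by both Mir219a genes has another seed than miR-338-3p. The copies of miR-219a-5p lie on the - strand (chr2:29845689-29845709 and chr17:34025052-34025072), and miR-338-3p on the - strand (chr11:120014781-120014802).
miR-219a-5p: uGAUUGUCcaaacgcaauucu
miR-338-3p: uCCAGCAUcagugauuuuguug

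Of the 55 lists, the contractile genes had the median farthest from 0. All 24 measured members of the contractile and SRF target list were lower at passage 11, 17 at least 2-fold and 11 at least 4-fold, with a median of -1.95. SRF is a transcription factor that loads actin and smooth muscle genes when actin is polymerised. Tagln, the gene of the actin-binding protein transgelin, was 9.49 at passage 11 and 13.34 at passage 3, 14.4-fold lower. Cnn1, the gene of smooth muscle calponin, was 8.43 at passage 11 and 12.05 at passage 3, and Actn1, which encodes the actin cross-linker alpha-actinin, was 9.42 at passage 11 and 12.84 at passage 3. Acta2, the smooth muscle actin gene, was 11.87 at passage 11 and 13.79 at passage 3. Myl9, a myosin light chain gene, was 10.04 at passage 11 and 13.00 at passage 3. Flna, the gene of the actin cross-linker filamin A, was at -2.51, Cnn2 at -2.35, Vcl, for the adhesion protein vinculin, at -1.92, and Tpm1, a tropomyosin gene, at -1.77. Genes driven by YAP and TEAD sit in the same list: Ccn1 at -2.72, Ccn2 at -1.98, Ankrd1 at -2.78 and Thbs1 at -3.58. The members closest to equal included the smooth muscle myosin gene Myh11 (8.71 at passage 11 and 8.92 at passage 3), the desmin gene Des (7.67 at passage 11 and 7.75 at passage 3) and the leiomodin gene Lmod1 (8.76 at passage 11 and 9.17 at passage 3), which differed by -0.21, -0.07 and -0.40.

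SRF binds the CArG box, and the bases before the RefSeq start of these genes were searched for it on both strands. Of 18 list members with a promoter in the table, 3 held a match in the 250 bases before the start (16.7%), against 227 of 15563 promoters (1.46%). Of the genes at least 2-fold lower, 14 of 496 held one (2.82%), and of those at least 2-fold higher, 3 of 113 (2.65%). The 3 list members are shown because they hold the box, which is in capitals. Their differences were -2.96 for Myl9, -2.35 for Cnn2 and -1.92 for Vcl, and the 15 members searched that hold no match were lower at passage 11 as well. Myl9 lies on the + strand (chr2:156775214-156775463), Cnn2 on the + strand (chr10:79988350-79988599) and Vcl on the + strand (chr14:20929148-20929397) of GRCm38.p6. In Cnn2 the match shares bases with a match to the hypoxia motif described further on. A match is a description of letters, and SRF binding was not measured.
Myl9: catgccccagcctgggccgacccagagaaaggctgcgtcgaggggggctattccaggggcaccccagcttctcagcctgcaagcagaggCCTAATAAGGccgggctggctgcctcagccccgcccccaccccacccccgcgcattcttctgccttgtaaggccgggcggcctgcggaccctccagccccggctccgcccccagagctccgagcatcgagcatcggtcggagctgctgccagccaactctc
Cnn2: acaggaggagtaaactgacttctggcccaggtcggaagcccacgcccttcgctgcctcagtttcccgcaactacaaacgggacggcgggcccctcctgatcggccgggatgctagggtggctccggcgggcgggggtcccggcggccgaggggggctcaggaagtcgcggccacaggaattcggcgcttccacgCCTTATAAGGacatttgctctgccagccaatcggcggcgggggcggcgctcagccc
Vcl: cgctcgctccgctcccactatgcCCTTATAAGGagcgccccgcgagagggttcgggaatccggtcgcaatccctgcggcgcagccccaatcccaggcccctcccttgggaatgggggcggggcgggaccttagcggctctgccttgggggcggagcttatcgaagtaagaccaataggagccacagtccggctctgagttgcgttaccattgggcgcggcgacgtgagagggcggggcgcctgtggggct

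Matrix and adhesion genes were lower in part of each list. Of 26 fibroblast and mesenchymal markers, 9 were at least 2-fold lower, 7 of them at least 4-fold, and 0 were higher, with a median of -0.76. Fn1, for fibronectin, was 10.01 at passage 11 and 13.14 at passage 3. Lox, which cross-links collagen and elastin, was 7.46 at passage 11 and 10.89 at passage 3, and Tnc, for the matrix protein tenascin C, was 9.76 at passage 11 and 13.06 at passage 3. Thbs2, a matricellular protein gene, was 12.1-fold lower and the proteoglycan gene Bgn was at -2.85. Among the other members, the adhesion receptor gene Cd44 was at -2.37, the transcription factor gene Prrx1 at -1.72 and the PDGF receptor gene Pdgfrb at -0.96. Members that differed by less included Lum, which stood at 6.16 at passage 11 and 6.19 at passage 3, Fap at 6.68 at passage 11 and 6.79 at passage 3, Twist1 at 8.12 at passage 11 and 8.35 at passage 3, Thy1 at 9.46 at passage 11 and 9.47 at passage 3, and Snai1 at 9.18 on both arrays. Collagen genes centred on 0.05. At least 2-fold lower were 2 of 31, the short-chain collagen gene Col8a1 (9.31 at passage 11 and 12.14 at passage 3) and Col12a1 (8.28 at passage 11 and 10.81 at passage 3). The fibrillar collagen genes Col1a1 (-0.19), Col1a2 (-0.08) and Col3a1 (0.05) were close to equal. Summed over the fibroblast and mesenchymal markers, the level was 14.99 at passage 11 and 16.30 at passage 3 (log2 of the summed linear values). The part that a different share of mesenchymal cells had in the contractile and matrix differences was not tested. In RNA from whole cultures, fewer cells of a type and less RNA per cell cannot be told apart.

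**Figure D3:**
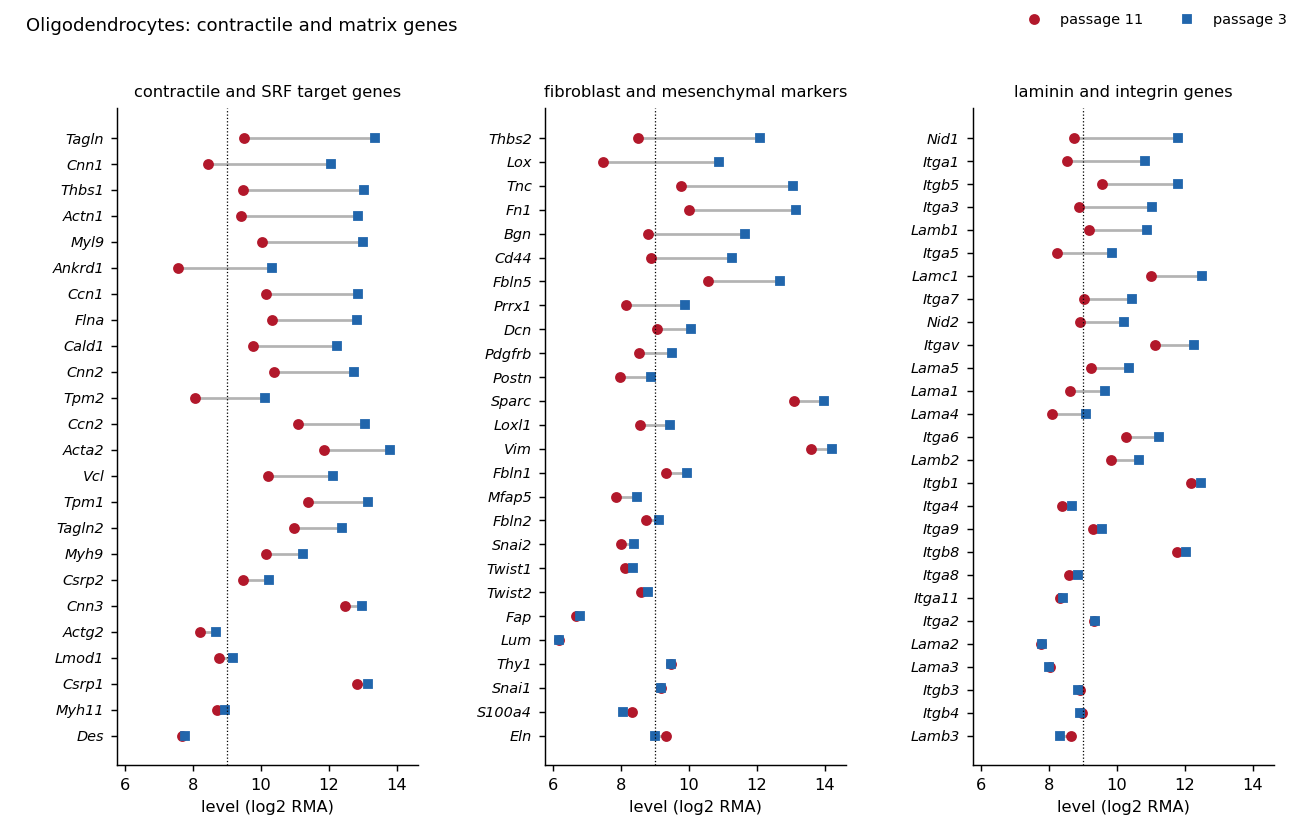
Level of each contractile, fibroblast and laminin or integrin gene (log2 RMA, horizontal axis), with passage 11 as red circles and passage 3 as blue squares, sorted by the difference; the dotted line is the median of all gene values, 9.005. All 24 contractile genes have the red circle on the left, and Lum, Fap and Twist1 stay below the dotted line on both arrays.

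Basement membrane and integrin genes followed, with 12 of 27 at least 2-fold lower, 0 higher and a median of -0.95. Nid1, which links laminin to collagen IV, was 8.75 at passage 11 and 11.80 at passage 3. Lamb1, a laminin chain gene, was at -1.73. The integrin genes Itga1, Itgb5 and Itga3 were at -2.30, -2.25 and -2.16. Itgb1, the partner chain of many integrins (-0.31), and Itga6, the laminin-binding chain of oligodendrocytes (-0.95), differed by less than 2-fold. Of 26 matrix proteases and their inhibitors, 5 were at least 2-fold lower and 0 higher (median -0.43). Mmp2, for a secreted gelatinase, was 9.81 at passage 11 and 12.58 at passage 3, and the inhibitor gene Timp1 was at -1.44, while Timp4 was at 0.88.

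Several gene families for membrane-associated proteins, and the tropomyosin family, were lower as well. These families were picked after their values had been seen. Of 7 caveolin and cavin genes, which build caveolae, 4 were at least 2-fold lower and 0 higher, with a median of -1.57. Cav1 was 8.82 at passage 11 and 12.47 at passage 3, 12.6-fold lower. The muscle members Cav3 and Cavin4 were at 0.26 and 0.15. Of 12 annexin genes, which encode calcium-dependent membrane-binding proteins, 5 were at least 2-fold lower (median -0.74). Anxa3 was 7.98 at passage 11 and 11.92 at passage 3, 15.4-fold lower, and Anxa1 and Anxa2 were at -2.97 and -2.60. Anxa5 and Anxa6, by contrast, were at -0.64 and -0.85. The small tetraspan genes Emp1 (-2.71), Emp3 (-2.24) and Emp2 (-1.70) were lower than their relative Pmp22 (-0.66), a peripheral myelin gene. Of 4 tropomyosin genes 3 were at least 2-fold lower, with a median of -1.58. This family shares Tpm1 and Tpm2 with the contractile list above.

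Stmn2, for a microtubule-destabilising protein of growing neurites, was 8.12 at passage 11 and 12.56 at passage 3, 21.7-fold lower and the largest difference of all 19938 genes. It stood at 12.79 in EpiSCs and 13.74 in the rosette. Vgll3, a cofactor of TEAD transcription factors, was 8.20 at passage 11 and 12.03 at passage 3. Plp2, a membrane protein gene, was 8.77 at passage 11 and 12.53 at passage 3, and its other rows gave -3.47 and -3.48. Casp8, for the initiator caspase of death receptors, was 7.26 at passage 11 and 10.75 at passage 3. Mme, for the peptidase neprilysin, was 7.89 at passage 11 and 11.33 at passage 3. Hspb1, the small heat shock protein gene, was 8.90 at passage 11 and 12.22 at passage 3, with -3.22 on its other row. Further members of the largest 20 were the apelin receptor ligand gene Apela (-3.58), the membrane repair gene Myof (-3.39), the steroid dehydrogenase gene Akr1c14 (-3.30) and the actin adaptor gene Sorbs2 (-3.28).

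The largest differences on the higher side were smaller. Cdh19, a cadherin gene of Schwann cell precursors and of glia, was 9.80 at passage 11 and 6.48 at passage 3, 9.99-fold higher. Ucma, known as a cartilage matrix protein gene, was 11.71 at passage 11 and 9.09 at passage 3. Taf13, which encodes a subunit of the general transcription factor TFIID, was 11.82 at passage 11 and 9.69 at passage 3, with 1.02 on its other row. S100b, for a calcium-binding protein of astrocytes and oligodendrocytes, was 12.06 at passage 11 and 10.25 at passage 3. Ddc, the aromatic amino acid decarboxylase gene, was 11.27 at passage 11 and 9.32 at passage 3, and Ninj2, an adhesion protein gene, was 11.83 at passage 11 and 10.16 at passage 3. Scgb1a1 and Clca3a1 were past 4-fold too, at passage 3 levels of 5.11 and 6.73 with neither array above 9.005. Cldn10, a tight junction gene, was higher by 1.79 and the semaphorin gene Sema3d by 1.59. Ndufa1, Atp5mpl, Atp5e and Atp5l also rank here, and they belong to the respiratory chain described further on. Lhfpl2 (1.95), Abhd3 (1.86), Elmod1 (1.83), Synpr (1.71) and the glutathione transferase gene Gsto1 (1.68) were also among the 20 largest, together with Ss18l2 (1.97) and Lrmda (1.80).

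Cell cycle genes were lower at passage 11. Of 35 mitotic genes 34 were below 0 and 12 at least 2-fold lower, with a median of -0.82, and of 29 DNA replication genes 27 were below 0 and 3 at least 2-fold lower, with a median of -0.56. Mki67, the proliferation marker Ki-67, was 10.44 at passage 11 and 11.85 at passage 3. Ccnb2, a mitotic cyclin gene, was 10.25 at passage 11 and 11.89 at passage 3. The cytokinesis motor gene Kif23 was at -1.60 and the spindle checkpoint kinase gene Bub1 at -1.53. Cdk1, the kinase that drives mitosis, was at -0.42, and Birc5 alone among the mitotic genes was above 0, at 0.06. In the replication list the helicase gene Mcm2 was at -1.13, the polymerase gene Pole at -1.24 and cyclin E2 (Ccne2) at -1.04, while the clamp gene Pcna was at -0.06. Ccnd2, the D cyclin that responds to mitogens, was 11.68 at passage 11 and 13.48 at passage 3. It belongs to a list of 12 CDK inhibitors, D cyclins and retinoblastoma family genes, of which 0 were at least 2-fold higher and 2 lower, Ccnd2 and the retinoblastoma family gene Rbl1 (-1.01). Each CDK inhibitor gene measured lay within 2-fold, with Cdkn2a at 9.13 at passage 11 and 8.87 at passage 3, Cdkn2c at 0.36 and Cdkn2b at -0.75. Targets of p53 had a median of -0.19 (3 of 20 at least 2-fold lower), among them the death receptor genes Tnfrsf10b (-1.63) and Fas (-1.39). Genes of the secretory programme of senescent cells had 3 of 18 at least 2-fold lower and 0 higher, with Igfbp7 at -2.06, Ccl2 at -2.20 and Timp1 at -1.44.

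Many mitotic promoters carry CCAAT boxes bound by the factor NF-Y. The letters CCAAT, on either strand, were found in the 250 bases before the start in 24 of 30 mitotic gene promoters (80%), against 6046 of 15563 promoters (38.8%). The share was 42.7% among genes at least 2-fold lower and 48.7% among those at least 2-fold higher. The promoters of the 2 mitotic genes with the largest differences among those with a match are printed, both on the - strand of GRCm38.p6, Ccnb2 (chr9:70421555-70421804) with 3 boxes and Kif23 (chr9:61946800-61947049) with 1 box read on the opposite strand. The E2F core, TTTCGCGC or TTTGGCGC on either strand, was found in 5 of 24 replication gene promoters (20.8%), against 1.07% of all promoters, 1.01% of the genes at least 2-fold lower and 1.77% of those at least 2-fold higher. Capitals mark the boxes.
Ccnb2: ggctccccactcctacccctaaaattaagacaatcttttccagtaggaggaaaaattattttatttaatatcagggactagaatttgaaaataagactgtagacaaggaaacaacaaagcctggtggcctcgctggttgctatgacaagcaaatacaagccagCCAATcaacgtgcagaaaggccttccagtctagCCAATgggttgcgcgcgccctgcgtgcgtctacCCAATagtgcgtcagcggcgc
Kif23: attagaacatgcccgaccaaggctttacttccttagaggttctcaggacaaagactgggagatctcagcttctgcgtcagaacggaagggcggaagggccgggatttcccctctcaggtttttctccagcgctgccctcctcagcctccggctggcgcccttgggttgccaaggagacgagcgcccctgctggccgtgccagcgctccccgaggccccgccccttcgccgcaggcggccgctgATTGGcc

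Chemokine and interferon genes were lower too. Of 19 chemokine and NF-kB target genes 8 were at least 2-fold lower and 0 higher, with a median of -0.68. Vcam1, an adhesion receptor for integrins, was 9.01 at passage 11 and 12.23 at passage 3. Cxcl10, a chemokine induced by interferon, was 7.97 at passage 11 and 11.16 at passage 3. The macrophage growth factor gene Csf1 was at -2.23, the monocyte chemokine gene Ccl2 at -2.20 and the membrane-bound chemokine gene Cx3cl1 at -1.88. Of 26 interferon response genes 7 were at least 2-fold lower and 0 higher, with a median of -0.62. Ddx58, the gene of the RNA sensor RIG-I, was 8.83 at passage 11 and 11.17 at passage 3. Usp18, which removes the ubiquitin-like protein ISG15, was 8.27 at passage 11 and 10.24 at passage 3, and Ifit3 was 8.49 at passage 11 and 10.42 at passage 3. Antigen presentation genes lay within 2-fold (0 of 16, median -0.15), and so did all 19 microglial, endothelial and ependymal markers (median 0.10). The microglial genes Aif1, Itgam and Ptprc stood at 7.50, 7.46 and 7.78 at passage 11 and at 7.46, 7.45 and 7.63 at passage 3, below the median of all gene values.

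Interferon-driven promoters hold the ISRE, searched here as GAAANNGAAA on both strands. It was found in 8 of 19 interferon list promoters (42.1%), against 3.4% of all 15563, 5.24% of the genes at least 2-fold lower and 2.65% of those at least 2-fold higher. Ifit3 (+ strand, chr19:34583279-34583528, GRCm38.p6) holds 2 matches and Trim30a (- strand, chr7:104465194-104465443, GRCm38.p6) holds 1, all read on the opposite strand and given in capitals. These are the 2 holders with the largest differences. Trim30a was 7.57 at passage 11 and 9.001 at passage 3, low on both arrays.
Ifit3: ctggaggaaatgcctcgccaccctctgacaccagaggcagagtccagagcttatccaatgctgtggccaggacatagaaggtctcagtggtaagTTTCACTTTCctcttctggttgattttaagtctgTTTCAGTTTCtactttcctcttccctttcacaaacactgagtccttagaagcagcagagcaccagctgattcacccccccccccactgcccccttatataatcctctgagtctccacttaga
Trim30a: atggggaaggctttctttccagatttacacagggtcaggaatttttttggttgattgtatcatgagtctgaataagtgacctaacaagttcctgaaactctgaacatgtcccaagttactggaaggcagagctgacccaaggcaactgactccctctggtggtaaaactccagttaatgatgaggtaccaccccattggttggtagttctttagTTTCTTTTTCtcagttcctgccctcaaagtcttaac

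Signalling genes were lower for some receptors and feedback genes. Of 20 receptor tyrosine kinase genes 4 were at least 2-fold lower and 0 higher, with a median of -0.37. Met, the receptor of hepatocyte growth factor, was 7.90 at passage 11 and 9.86 at passage 3, Axl was 9.95 at passage 11 and 11.86 at passage 3, and the growth factor receptor genes Igf1r and Fgfr1 were at -1.68 and -1.07. Notch pathway genes had 4 of 20 at least 2-fold lower (median -0.23), the target genes Hey2 (-1.97) and Hes1 (-1.39), the ligand gene Jag1 (-1.12) and the receptor gene Notch2 (-1.10), while the target Hes5 was at 0.37. In the BMP and TGF-beta list 5 of 29 were at least 2-fold lower (median -0.10), with Bmp6 at -1.61, the latency protein gene Ltbp1 at -1.58, the antagonist gene Fst at -1.17 and Tgfbr2 at -1.07 beside Bmp4. The BMP target genes Id1, Id2, Id3 and Id4 were at -0.31, -0.40, -0.09 and -0.34. Immediate early genes had 5 of 25 at least 2-fold lower (median -0.39), led by the phosphatase gene Dusp1, at 10.22 at passage 11 and 12.70 at passage 3, and by Egr1 at -1.28, with Fos at 0.07. Among ERK feedback genes 2 of 18 were at least 2-fold lower (median -0.34), Dusp5 at -1.22 and Shc1 at -1.09. In the SHH list Shh itself was at -1.57, the receptor gene Ptch1 at -0.62 and the target Gli1 at 0.07 (median -0.27, 1 of 13 at least 2-fold lower). Wnt genes had a median of 0.07, with the Wnt antagonist gene Sfrp1 alone at least 2-fold lower, at -1.15.

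Of 18 imprinted genes 5 were at least 2-fold lower and 0 higher, and their median was -0.84. Peg10 was 11.41 at passage 11 and 13.33 at passage 3, and Mest was 11.79 at passage 11 and 13.48 at passage 3. Dlk1, a Notch-like ligand gene expressed from the paternal copy, was 9.79 at passage 11 and 11.30 at passage 3. Meg3, a noncoding RNA expressed from the maternal copy of the same region of chromosome 12, was 9.09 at passage 11 and 10.60 at passage 3. Igf2 (-0.04), Ndn (-0.20) and Nnat (-0.36) were closer to equal. RefSeq places 47 of the compared genes between Dlk1 and Dio3, those included, and 6 of them were at least 2-fold lower. The region's 40 microRNA genes had a median of -0.10, with 27 below 0, 3 at least 2-fold lower and 0 higher. Mir382 was 5.92 at passage 11 and 7.92 at passage 3, against 9.90 in EpiSCs and 9.24 in the rosette. Mir380 was at -1.46 and Mir377 at -1.19, and all 3 lay below 9.005 on both arrays, while the noncoding RNA gene Rian, from the maternal copy too, was at -0.84 (7.01 at passage 11 and 7.85 at passage 3). Over all 287 microRNA genes compared, 2 were at least 2-fold higher and 8 lower, with a median of 0.04, so the 3 genes of this region were among those 8. Mir218-1, which lies within Slit2, was another, at 7.29 at passage 11 and 8.83 at passage 3. This region was looked at after its values had been seen. The 5′ arms of these microRNAs, from RefSeq (GRCm38.p6) with the seed in capitals, have different seeds. All lie on the + strand, at chr12:109733781-109733802 (miR-382-5p), chr12:109711806-109711827 (miR-380-5p), chr12:109740515-109740536 (miR-377-5p) and chr5:48223966-48223986 (miR-218-5p).
miR-382-5p: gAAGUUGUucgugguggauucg
miR-380-5p: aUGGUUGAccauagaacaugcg
miR-377-5p: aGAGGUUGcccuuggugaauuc
miR-218-5p: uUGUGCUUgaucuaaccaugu

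Of 13 heterochronic (developmental timing) and growth genes 3 were at least 2-fold lower. Their median was 0.07, and -0.59 without dim genes. Igf2bp3, an RNA-binding protein gene of fetal tissue, was 9.28 at passage 11 and 10.69 at passage 3. Igf2bp1 was 7.78 at passage 11 and 9.12 at passage 3, with -0.61, under 2-fold, on its other and dimmer row. The chromatin protein gene Hmga2 was 9.71 at passage 11 and 10.80 at passage 3. Lin28a was at 0.53 and Lin28b at 0.09. Hox genes, which record position along the body axis, lay within 2-fold in 37 of 37, where 785 of all 19938 genes were at least 2-fold apart. Their median was 0.19, and -0.45 over the 8 members above the level of 9.005 on at least 1 array. Hoxb5 at -0.73 and Hoxb2 at -0.61 were the largest named differences. Chromatin modifiers also lay within 2-fold (0 of 25 apart, median -0.10), with the maintenance methyltransferase gene Dnmt1 at -0.74.

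Respiratory chain genes leaned the other way. The respiratory chain list, like all lists here, was written with earlier results of these data known. Of its 35 measured subunit genes 31 were above 0, 5 at least 2-fold higher and 0 lower, with a median of 0.42. Ndufa1, a small subunit of complex I, was 11.70 at passage 11 and 9.73 at passage 3. Ndufa4, a subunit named for complex I and later assigned to complex IV, was 12.73 at passage 11 and 11.14 at passage 3, and the complex IV genes Cox6a1 and Cox4i1 were at 1.37 and 1.24. Taking all nuclear genes by symbol, a choice made after the values had been seen, all 34 complex I genes were above 0 (median 0.59, 4 at least 2-fold higher). For complex III, 2 of 8 were at least 2-fold higher (median 0.56), for complex IV 2 of 17 (median 0.38), and for ATP synthase 4 of 17 (median 0.58). Atp5mpl was 12.55 at passage 11 and 10.59 at passage 3, Atp5e was 11.19 at passage 11 and 9.46 at passage 3, and Atp5l was 11.90 at passage 11 and 10.24 at passage 3, with 1.65 to 1.81 on its 5 other rows. The list of 24 cytosolic ribosomal protein genes had 23 above 0 and 0 at least 2-fold apart (median 0.30). Taken by symbol, cytosolic ribosomal protein genes had 55 of 60 above 0 and 5 at least 2-fold higher (median 0.36), mitochondrial ribosomal protein genes 61 of 77 above 0 (median 0.21), and proteasome subunit genes 28 of 40 above 0 (median 0.18). Several ribosomal protein genes have near-identical processed copies, and probes that read both cannot be told apart.

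Short genes lay higher than long genes in general. Over 18553 protein-coding genes the difference was lower at longer RefSeq gene span, with a Spearman correlation of -0.305 across genes, which share the same 2 arrays and are not replicates. The medians of 5 equal groups by span, shortest first, were 0.17, 0.09, 0.03, -0.03 and -0.13. In the shortest group 32 genes were at least 2-fold higher and 43 lower, and in the longest group 29 were higher and 248 lower. Complex I genes had a median span of 7.74 kb and cytosolic ribosomal protein genes 3.22 kb, against 17.7 kb over all genes. The part that span had in the respiratory and ribosomal medians was not tested. With the trend on span removed, 134 genes were at least 2-fold higher and 604 lower. Across this and all other alternatives but the filter on dim genes, the 66 list and family medians moved by at most 0.22. That bound is not specific to span.

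**Figure D4:**
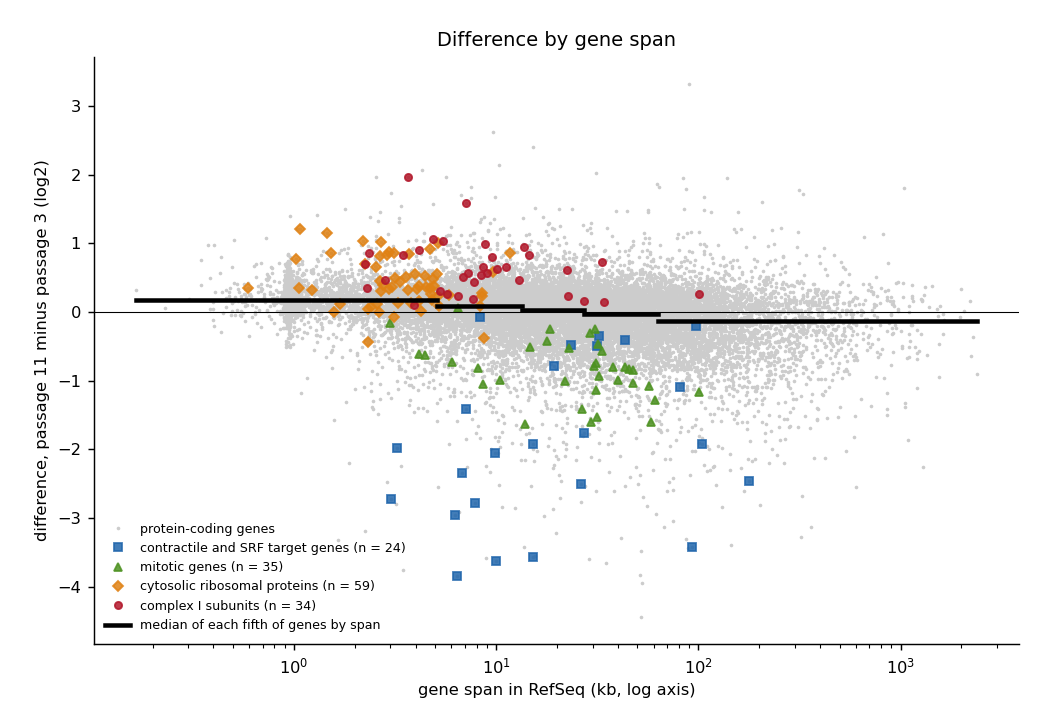
Difference between passages (log2, passage 11 minus passage 3, vertical axis) against RefSeq gene span (kb, log axis), 1 point per protein-coding gene, with 4 groups of genes in colour and the medians of 5 equal groups by span as black bars. The bars run from 0.17 at the shortest spans to -0.13 at the longest, and the contractile genes, with a median of -1.95, lie below them.

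Glycolysis and hypoxia genes had 3 of 29 at least 2-fold lower and a median of -0.28. Slc2a3, a glucose transporter gene of neurons, was 8.89 at passage 11 and 11.32 at passage 3, the oxygen sensor gene Egln3 was 10.00 at passage 11 and 11.66 at passage 3, and Pfkp was at -1.08. The hypoxia motif core, ACGTG or GCGTG on either strand, was found in 26 of 27 of this list's promoters (96.3%), against 49.9% of all promoters, 55.8% of the genes at least 2-fold lower and 50.4% of those at least 2-fold higher. Chaperone genes of the endoplasmic reticulum lay within 2-fold but had a median of -0.40, with Creld2 at -0.98. Heat shock genes had 3 of 12 at least 2-fold lower (median -0.27), Hspb1, Hspb8 (-1.28) and Hspa4l (-1.72). Genes of the amino acid stress response had a median of -0.05, with Nupr1 alone at least 2-fold apart, at -1.09, and the CARE core, TGATGNAA, in 27.3% of the list's promoters, against 3.14% of all, 3.02% of the genes at least 2-fold lower and 1.77% of those at least 2-fold higher. Oxidative stress genes (0 of 22 apart, median 0.04) and lysosomal genes (0 of 21 apart, median -0.07) lay within 2-fold. Iron genes had a median of -0.02, and the ferroxidase gene Cp was lower by 1.52. For the cholesterol list the sterol element core, CACCNCA, was found in 25% of promoters, against 17.5% of all, 18.1% of the genes at least 2-fold lower and 9.73% of those at least 2-fold higher.

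Membrane excitability genes differed singly. Kcna1, a voltage-gated potassium channel gene, was 12.43 at passage 11 and 11.14 at passage 3, and the two-pore channel gene Kcnk2 was at -1.08 (1 of 19 higher, 1 lower, median 0.10). The calcium channel subunit gene Cacna2d3 was at 1.13 (1 of 20 higher, 0 lower, median -0.02). In the transmitter receptor list the GABA receptor gene Gabrg1 was at 1.16 and the AMPA receptor gene Gria3 at -1.06 (1 of 22 each way, median 0.12). Of 20 G protein coupled receptor genes, S1pr3, for sphingosine 1-phosphate, was at -1.66, P2ry2, for nucleotides, at -1.01, and Gpr37l1 at 1.13 (median 0.01). Among adhesion genes of the axon contact, Ninj2 was the 1 of 19 at least 2-fold higher, and Epb41l3 (-1.77) and Cadm3 (-1.13) were lower (median -0.04), with Nfasc, which builds the paranode, at -0.05 and Cntn1 at 0.39. Of 33 guidance genes 2 were at least 2-fold higher and 6 lower, with a median of -0.45, against 154 higher and 631 lower over all genes. Slit2, a repulsive ligand gene, was 9.36 at passage 11 and 12.04 at passage 3, Slit3 was 9.07 at passage 11 and 10.89 at passage 3, and Sema3e was at 1.20 beside Sema3d. Cadherin genes had 1 of 23 higher, Pcdh10 at 1.46, and 2 lower, Pcdh18 at -1.78 and Cdh6 at -1.22 (median -0.06). Oligodendrocyte cytoskeleton and motor genes lay within 2-fold in 24 of 24 (median 0.12).

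Markers of other cell types differed unevenly. Of 23 astrocyte markers 4 were at least 2-fold lower and 1 higher, with a median of 0.14. Gfap, the intermediate filament gene of astrocytes, was 8.69 at passage 11 and 10.50 at passage 3, and Aqp4, the water channel gene of their endfeet, was 8.47 at passage 11 and 9.89 at passage 3. Aldh1l1 was at -1.35 and Clu at -1.45, while the glutamate transporter gene Slc1a2 and the membrane protein gene Mlc1 were both at 0.80 and S100b at 1.81. The astrocyte markers summed to 16.46 at passage 11 and 16.30 at passage 3, on the log2 scale of summed linear values. Neuronal markers had 1 of 25 at least 2-fold higher, Tubb3 (10.32 at passage 11 and 9.11 at passage 3), and 1 lower, Stmn2, with a median of -0.04 and summed levels of 15.05 at passage 11 and 15.38 at passage 3. Dcx, of migrating neurons, was at -0.98, and Rbfox3, of mature neurons, stood at 9.10 at passage 11 and 8.84 at passage 3. Neural crest and Schwann cell markers had 2 of 17 at least 2-fold higher, Cdh19 and the pigment enzyme gene Dct (10.41 at passage 11 and 9.41 at passage 3), and a median of 0.08. The crest factor genes Foxd3, Tfap2a and Tfap2b stood between 7.33 and 8.23 at passage 11 and between 7.28 and 8.25 at passage 3, below the median of all gene values. Pluripotency genes lay within 2-fold in 17 of 17 (median 0.13), and only 2 of them were above 9.005 on at least 1 array. Xist, the X inactivation RNA gene of female cells, was 12.58 at passage 11 and 13.22 at passage 3, so both cultures carried it. The part of other cell types in the differences above was not tested.

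**Figure D5:**
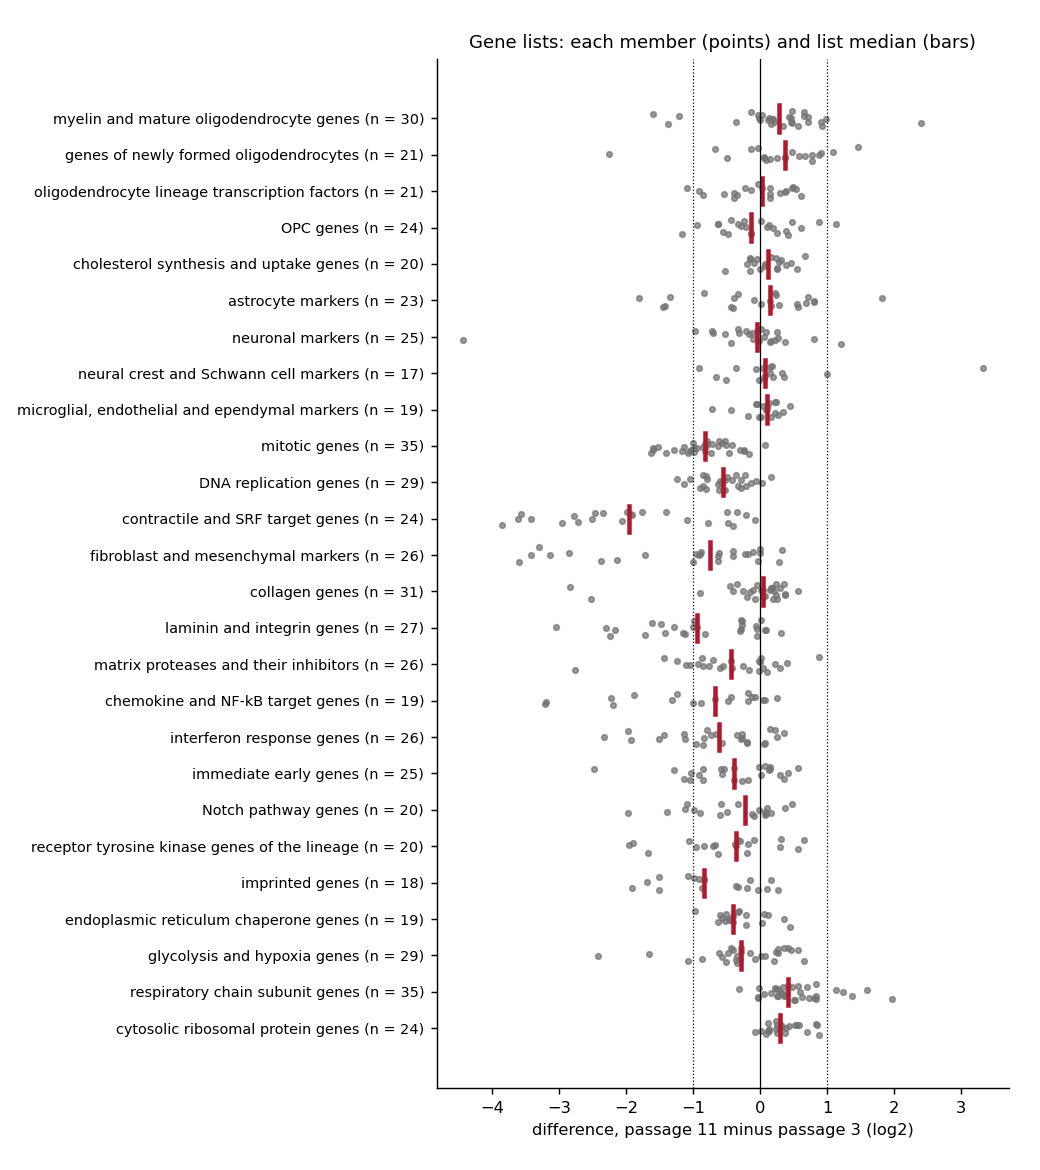
Difference between passages (log2, passage 11 minus passage 3, horizontal axis) for every measured member of 26 gene lists (points), with each list's median as a red bar and dotted lines at 2-fold. The contractile list lies farthest to the left, at a median of -1.95, and the respiratory chain list farthest to the right, at 0.42.

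Chromosomes differed little as wholes. The median difference by chromosome ran between -0.02 (chromosome 18) and 0.08 (chromosome 7), over 470 to 1734 genes each. The share of genes at least 2-fold lower was lowest on chromosome 11 (2.18%) and highest on chromosome 3 (5.94%). Where a gene had several rows, they mostly went together: of 51 such genes at least 2-fold apart, the next row had the same sign in 49 and was itself at least 2-fold apart in that direction in 32.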

How the data were processed

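RNA of 6 mouse cultures was measured on 1 Affymetrix whole-transcript array each, from 150 ng of total RNA per the labels' protocols. The authors summarised probes to log2 values by RMA (Affymetrix Expression Console, as listed in the submitters' processing notes; version not given in the sources used here), and these log2 values are what was deposited. The number of arrays limits precision. Of 35556 transcripts, 21789 had 1 gene symbol, 1621 several and 12146 none. RefSeq (GRCm38.p6) held 19856 of the 19938 genes and changed 0 symbols. Differences, list medians and motif matches were computed with Python 3.11.15, pandas 2.3.3 and numpy 2.4.6, and the counting was tested on simulated data. The members and lists were chosen with earlier results of these data known. Of 1293 list entries 1203 were measured. Named genes are the 20 largest differences each way and the 5 largest of each list, among genes with at least 1 oligodendrocyte array over the all-gene median and passing over predicted genes, with all myelin, newly formed, lineage factor and collagen genes and a few markers. Genes outside that rule, the families, the microRNA genes and the Dlk1 to Dio3 region were chosen after their values were seen. Alternatives were centring, quantile normalization, an intensity trend, a filter on dim genes and other rules for genes with several rows, and, chosen after seeing the data, a span trend. OPC arrays entered no difference.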

Additional observations from a re-analysis of the deposited data

How the results depend on the processing

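The limit is 1 array a passage: no value has a replicate spread, and dim genes have differences that can be compressed by background. Counts of genes at least 2-fold higher and lower at passage 11 were 154 and 631 as reported, 140 and 587 without dim genes, 127 and 728 after centring on the median, 217 and 532 after quantile normalization (29% of the calls higher, against 19.6%), 173 and 601 with the intensity trend removed, 157 and 630 with rows chosen on these arrays, 155 and 622 with rows averaged, and 134 and 604 with the span trend removed, an alternative chosen after seeing the data. The 66 list and family medians moved by at most 0.22 on the log2 scale in every alternative but the one without dim genes, and 17 of them, all within 0.14 of 0 as reported, changed sign in at least 1 of these. Without dim genes 7 moved further. Chemokine and NF-kB targets moved to -1.24, Notch to -0.54, BMP and TGF-beta to -0.41 and Hox to -0.45. Heterochronic and growth genes moved to -0.59, annexins to -1.61 and caveolins and cavins to -1.96. The medians of the Hox list and of the heterochronic and growth list were above 0 over all members (0.19 and 0.07). Their sign therefore rests on members with low levels. Of 370 named genes, 20 dropped under 2-fold with quantile normalization, 11 with the span trend removed and 10 with the intensity trend removed. No paired analysis was possible because each group has 1 array.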

Other observations

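The transcripts that the array annotation ties to no gene were compared in the same way. Over these 12146 transcripts the median difference was 0.05, with 311 at least 2-fold higher (2.56%) and 652 at least 2-fold lower (5.37%) at passage 11. Among them both shares were above those of the named genes, 0.772% and 3.16%. What these transcripts are was not analysed here.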
